A study of Rattus norvegicus with 144 samples.

Results

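Of 38803 annotated rat transcripts listed for each strain and each of 3 brain regions, 71 kept a low spread between the rats of each region, at measurable levels. They were chosen by their length, level and spread, as the transcripts with an assembled length of at least 700 and below 5000 bases and an FPKM in all 144 libraries. FPKM, the fragments mapped to a transcript relative to its length and to all mapped fragments of the library, is a level per transcript length. The mean FPKM had to be at least 10 and below 200 in each region, and the SD had to be at most 15% of the mean over the 48 libraries of each region. An FPKM in all 144 libraries was found for 31693 transcripts, 22085 of these also had the length, and 2181 also had the level. The last limit kept 71 of these 2181 (3.26%), which belong to 70 genes. The SD limit was met in the prefrontal cortex (PFC) by 145 of the 2181, in the dorsal hippocampus (HIP) by 277 and in the dorsal striatum (STR) by 258. The spread chose these transcripts, so their low spread over these libraries is a description and not a finding.

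The libraries came from adult male rats of 4 groups, with 12 libraries in each group and region. The 3 regions were taken from the same brains, so libraries of different regions share animals, but the labels do not say which. F344_Sal and F344_Nic were F344 rats, the background strain, given saline or nicotine. HIV_Sal and HIV_Nic were HIV-1 transgenic (HIV-1Tg) rats given the same treatments. Nicotine was injected subcutaneously at 0.25 mg/ml and 1 ml/kg, with 2 injections per day for 17 days, and the saline rats received the vehicle. In the HIV-1Tg line the inserted viral genes have their own promoter, which is not that of a particular brain cell type, and the animals are not infectious. Strain here is therefore the transgene together with any other difference between the 2 purchased lines. Each library was made from the total RNA of tissue with mixed cells, in which fewer cells of a type and less RNA per cell cannot be told apart.

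Levels that hardly differ between animals are of use as a yardstick. The housekeeping genes used as references in quantitative PCR are chosen for this property, and they can still differ between tissues, because brain regions hold different proportions of neurons, glia and vessel cells. A small spread also sets how small a treatment effect can be before it is lost among the animals. The tables name transcripts by Ensembl identifiers alone, and no table that pairs these identifiers with gene symbols was used here. Gene functions, cell type markers, positions and sequences are therefore not given.

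Over many transcripts, 3 libraries stood apart from the rest of their regions, namely PFC HIV_Nic 10, PFC HIV_Nic 11 and HIP HIV_Nic 4. They were known from earlier results of these data and were not picked by a preset limit. Among the 2181 transcripts, 86.0%, 80.7% and 77.3% were more than 1.2-fold away from the mean of the other libraries of the region. In the other libraries this share ran from 52.6% to 69.2% in PFC, 49.8% to 66.2% in HIP and 51.0% to 67.3% in STR, so these 3 had the highest shares of all 144. For the steady transcripts this held for 47, 39 and 32 of 71. The median log2 deviation of the steady transcripts was -0.004 in PFC HIV_Nic 10, 0.22 in PFC HIV_Nic 11 and 0.21 in HIP HIV_Nic 4, against 0.27, 0.44 and 0.40 for the 2181. The median alone did not separate PFC HIV_Nic 10, since over the 2181 PFC F344_Sal 4 was 0.29 from the mean of its region. PFC HIV_Nic 10 was the lowest PFC library for 23 of the 71, PFC HIV_Nic 11 the highest PFC library for 19 and HIP HIV_Nic 4 the highest HIP library for 27. With these 3 libraries left out, 142 transcripts met the limits. With PFC HIV_Nic 10 alone left out, 107 did. The depth is not stated per library. The ratio of read coverage to FPKM, which follows depth, ran from 2.07 to 3.55 in PFC, 1.64 to 2.48 in HIP and 1.64 to 3.51 in STR.

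The steady transcripts covered a wide range of levels. Their mean FPKM ran from 10.2 to 153 in PFC (median 26.7), from 10.9 to 114 in HIP (median 23.8) and from 11.4 to 134 in STR (median 23.6). The median SD was 11.3% of the mean in PFC, 10.3% in HIP and 10.97% in STR. For the 2110 other transcripts within the length and level limits it was 33.0%, 29.3% and 31.3%. Just inside the limit stood ENSRNOT00000061950 at 14.9985% and ENSRNOT00000068303 at 14.9864%. Just outside it stood ENSRNOT00000033976 at 15.08% and ENSRNOT00000015250 at 15.08%, all of these in PFC. Of the values of the 71 transcripts, 91.5% lay within 1.2-fold of the transcript's own median in the region, against 55.0% of the values of the others.

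**Figure D1:**
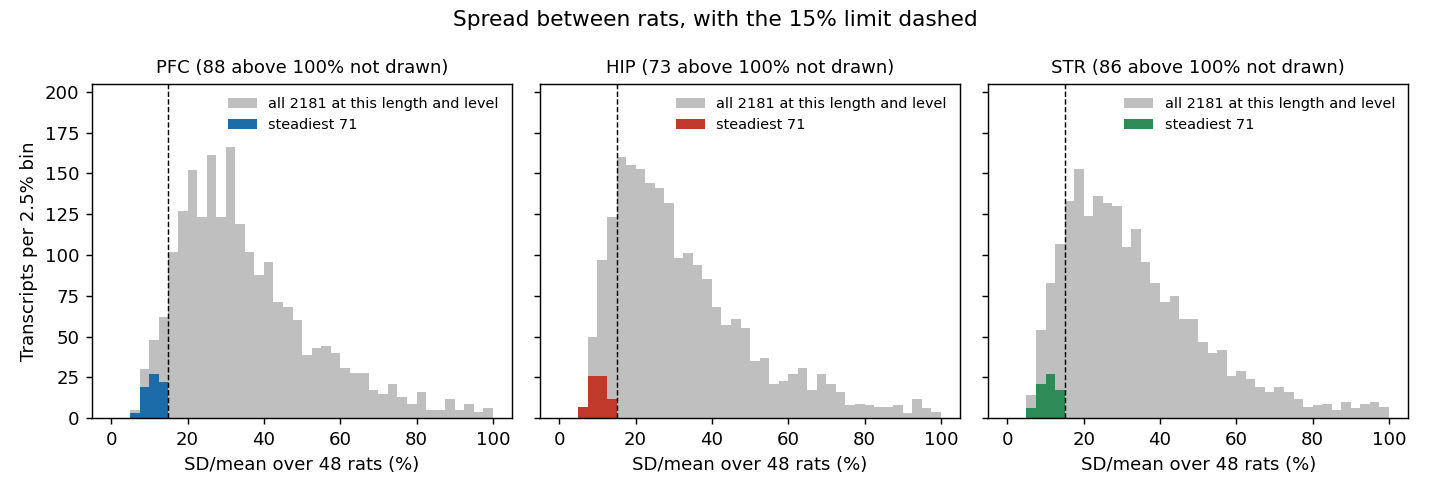
Number of transcripts (y axis, per bin) by SD as a percentage of the mean FPKM over 48 rats (x axis), in 1 panel per region, for all 2181 transcripts within the length and level limits (grey) and the 71 steady ones (colour), with the 15% limit dashed. The steady transcripts end at the limit of their choice, with medians of 11.3% (PFC), 10.3% (HIP) and 10.97% (STR), and values above 100% are not drawn.

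The transcript with the smallest spread in its least steady region was ENSRNOT00000024755. Its FPKM was 16.2 ± 1.17 in PFC, 17.0 ± 1.44 in HIP and 17.2 ± 1.40 in STR (SD, n = 48 each). In PFC its lowest, median and highest values were 14.2, 15.6 and 18.2 in F344_Sal rats, and 14.2, 16.02 and 17.6 in F344_Nic rats. They were 14.9, 16.8 and 18.2 in HIV_Sal rats and 13.4, 16.5 and 17.7 in HIV_Nic rats. The 4 groups overlapped over nearly their whole range, and the same was true in HIP (14.4 to 20.5 over all rats) and STR (14.3 to 20.1).

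ENSRNOT00000025979 was almost as steady at a higher level, with 66.9 ± 5.71 FPKM in PFC, 62.7 ± 5.26 in HIP and 66.4 ± 5.67 in STR (SD, n = 48 each). Its PFC values ran from 58.5 to 78.1 in F344_Sal, 61.5 to 78.9 in F344_Nic, 58.5 to 75.5 in HIV_Sal and 52.2 to 85.5 in HIV_Nic rats, with group medians of 64.8, 67.7, 67.2 and 66.0. The HIV_Nic rats thus held both the lowest and the highest value. ENSRNOT00000026214 had the smallest SD of all in PFC, 5.78% of a mean of 41.3 FPKM, and in HIP, 5.93% of 46.9, but 8.99% of 46.2 in STR. In all, 7 of the 71 stayed within an SD of 10% of the mean in each region.

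**Figure D2:**
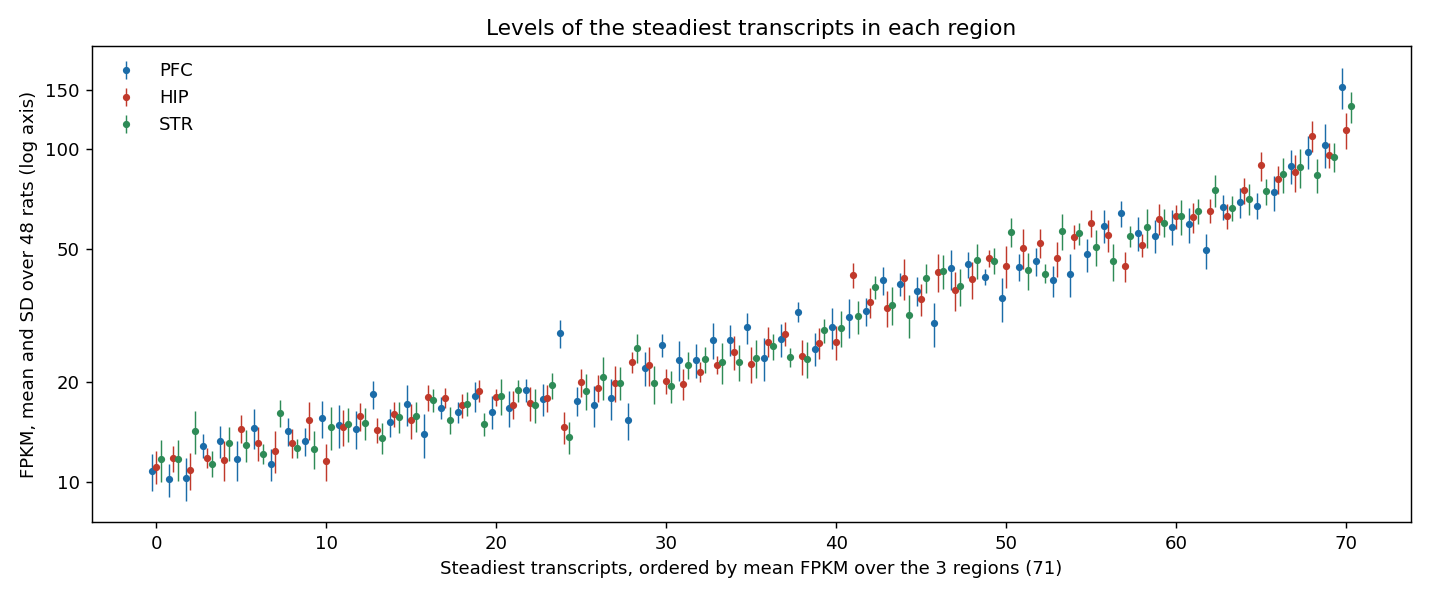
Mean FPKM (log axis) of each of the 71 steady transcripts in PFC, HIP and STR, ordered by their mean over the regions, with bars for the SD over 48 rats. The bars are short at each level from 10.2 to 153 FPKM, and the 3 regional means mostly lie close together, with exceptions such as ENSRNOT00000066590, at 27.95 FPKM in PFC, 14.7 in HIP and 13.7 in STR.

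Most steady transcripts came from genes for which the tables followed a single annotated transcript. This was the case for 59 of 71 (83.1%), against 64.2% of the 2110 others. A further 11 came from genes with 2 such transcripts. Cufflinks, the program that estimated the levels, gives each transcript a share of the gene's major isoform in percent. That share was 100 in all 144 libraries for 45 of the 71 (63.4%) and for 151 of the 2110 others (7.16%). Put the other way, 45 of the 196 transcripts with a share that never left 100 were steady (23.0%), against 26 of the other 1985 (1.31%). A share that changes between libraries and a level that changes between libraries come out of the same estimate, so the 2 measures are not independent.

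For 5 steady transcripts the median share was below 100, at 90, 83, 68, 57.5 and 53. These were minor isoforms in a typical library that nevertheless kept their level. Such transcripts made up 15.6% of the 2110 others. Gene ENSRNOG00000001454 had 2 steady transcripts. ENSRNOT00000050059 had mean FPKM values of 37.5, 35.5 and 40.9 in PFC, HIP and STR, and ENSRNOT00000001978 had 58.7, 55.1 and 45.9. Their sum was 96.2, 90.6 and 86.8, with an SD of 7.94%, 7.79% and 6.90% of the mean.

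Length set the steady transcripts apart much less. Their median length was 2047 bases, from 719.5 to 4848.5, against 1997.5 bases in the others. By length, the steady transcripts were 15 of 660 below 1500 bases (2.27%), 34 of 745 from 1500 to below 2500 (4.56%) and 22 of 776 from 2500 up (2.84%). The deposited values carry an error estimate of their own. The 95% interval that Cufflinks gave for a value reached a median of 6.45% to either side of it in the steady transcripts and 8.03% in the others. The mean of the region fell inside this interval for 54.1% of the steady values in PFC, 58.8% in HIP and 52.6% in STR. In the others it did so for 26.9%, 31.5% and 28.5%.

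The SD limit on each of the 71 also limits how far the whole set can move from library to library, so its spread is a description. The geometric mean of the 71 levels ran from 24.99 to 31.8 FPKM over the 48 PFC libraries, from 26.3 to 31.3 in HIP and from 26.4 to 30.9 in STR. Its SD was 4.30%, 4.22% and 3.72% of its mean. The PFC group medians were 27.9 (F344_Sal), 28.1 (F344_Nic), 28.1 (HIV_Sal) and 27.4 (HIV_Nic). In HIP they were 28.3, 27.0, 28.0 and 28.8, and in STR 28.9, 28.5, 28.1 and 27.7, in the same order of groups. The groups overlapped in each region.

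**Figure D3:**
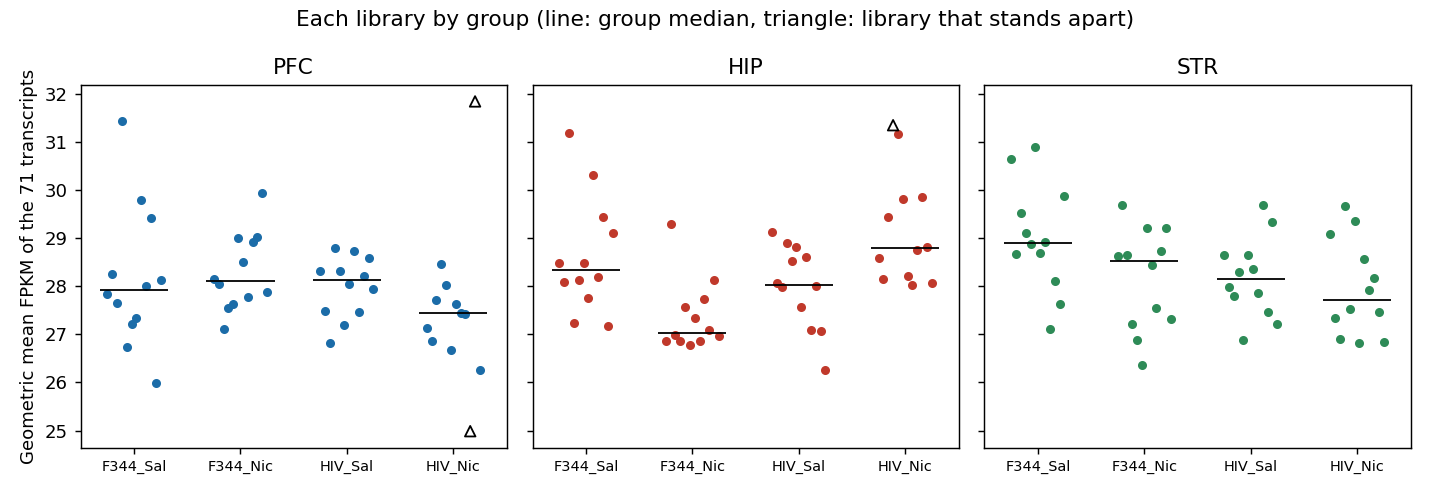
Geometric mean FPKM of the 71 steady transcripts in each of the 144 libraries, split by region and group, with the 3 libraries that stood apart marked. The libraries run from 24.99 to 31.8 in PFC, 26.3 to 31.3 in HIP and 26.4 to 30.9 in STR, and the groups overlap.

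Values below 50% or above 2 times the median of the region were counted next. Of 10224 values of the 71 transcripts, 25 (0.245%), in 19 of the transcripts, lay below 50% of the median of the region, and 0 lay above 2 times the median. Among the other 2110 transcripts 8.80% of the values lay below 50%. The SD limit keeps both kinds of value rare in the 71. A value above 2 times the median also lies further from it than a value at 50%. The limit thus leaves less room for high values than for low ones, so these counts are a description. PFC held 14 of the 25, HIP 5 and STR 6. PFC HIV_Nic 10 held 9 of them and the other 16 came from 16 different libraries. In 15 of these 16 the share of the major isoform was also below the transcript's usual share, which was so for 3.77% of all values of the 71. In PFC HIV_Nic 10 it was so for 2 of 9. In 6 of the 25 the library held 2 assembled transcripts under the same identifier, and their summed FPKM was 98.1% to 114% of the median.

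ENSRNOT00000010801 had the widest range in PFC. It was at 7.95 FPKM in F344_Sal 10 and between 27.1 and 50.5 in the other 47 PFC libraries. In HIP the widest was ENSRNOT00000061229, at 10.8 in F344_Nic 8 and from 39.2 to 59.4 elsewhere. In STR it was ENSRNOT00000009225, at 9.84 in F344_Sal 9 and from 38.1 to 50.1 elsewhere. In each case 1 value stood below the other 47. For ENSRNOT00000009225 that library held 2 assembled transcripts under the identifier, and 9.84 is the FPKM of the first and 50.1 their sum, which was not low. The ratio of the highest to the lowest library had a median over the 71 of 1.85 in PFC, 1.73 in HIP and 1.74 in STR, and it was below 2 in 46, 59 and 54 of them. Without the 3 libraries that stood apart, 63 in PFC and 61 in HIP were below 2.

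Differences between regions were the next question. The choice used the spread within a region and a wide window of levels, and it did not use the difference between regions. The highest of the 3 regions was PFC for 24 of the 71, HIP for 22 and STR for 25. The lowest was PFC for 33, HIP for 18 and STR for 20. The ratio of the highest to the lowest regional mean ran from 1.02 to 2.04 with a median of 1.17, against a median of 1.29 in the 2110 others. It was below 1.2 in 42 of 71 (59.2%), against 35.2% of the others. The larger spread of the others within a region also enters their regional means, so both of these contrasts are descriptions.

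Each region was compared with the others in limma, a linear model fitted over all 11900 transcripts that passed the filter on low values, the 71 included, on log2(FPKM + 0.1). A difference counted when the adjusted p was below 0.05 and the fold above 1.2. Between HIP and PFC this held for 19 of 71 (26.8%), 10 higher in HIP and 9 lower, where 30.9% of all tested transcripts were called. Between STR and PFC it held for 18 (25.4%), 10 higher in STR and 8 lower, where 37.9% were called. Between STR and HIP it held for 13 (18.3%), 6 higher in STR and 7 lower, where 31.1% were called. The share was thus below that of all transcripts for each pair of regions, and closest to it for HIP against PFC. All tested transcripts are not held to the length and level limits of the 71, and in rats outside the choice, given further on, the share was not lower for HIP against PFC. The median log2 difference of the 71 was 0.06 for HIP minus PFC, 0.01 for STR minus PFC and 0.0053 for STR minus HIP, against 0.06, 0.12 and 0.05 over all tested transcripts. After median scaling of the libraries 9 were higher in STR than in PFC and 13 lower, where 36.8% of all were called, and 5 were higher in STR than in HIP and 9 lower, where 30.8% were. Without the 3 libraries that stood apart the counts were 20, 18 and 12, where 31.6%, 38.1% and 32.1% of all were called. The tables were deposited by strain and region, and libraries of different regions were compared on FPKM scaled within each library. The fit treats the libraries of different regions as independent although they share animals, so the regional SEs and p-values are those of unpaired libraries. Any difference in handling between regions cannot be told apart from the region. The depth measure given above was higher in PFC than in HIP, and its part in these differences was not tested.

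With the threshold on p alone, 60, 54 and 40 of the 71 differed, where 35.7%, 42.5% and 35.5% of all tested transcripts did. The SE follows from the spread that chose the 71, so these counts are a description. Their median SE was 0.035 on the log2 scale, and the 95% interval reached a median of 0.07 to either side, against 0.33 over all tested transcripts. Of the 71, 19 passed the p threshold for all 3 pairs of regions, 47 for 2 pairs and 5 for at most 1 pair, where 9.70%, 34.8% and 55.5% of all tested transcripts did. For 29 of the 71, at least 1 pair differed with a fold above 1.2, where 54.6% of all did. For another 29, all 3 intervals lay inside 1.2-fold in either direction, where 3.41% of all did.

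**Figure D4:**
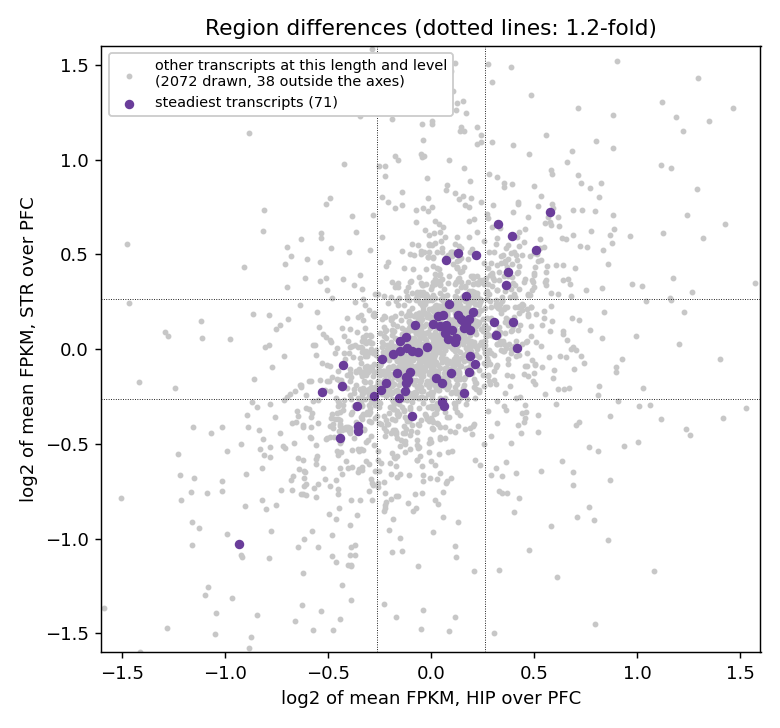
Log2 ratio of the mean FPKM of STR over PFC (y axis) against that of HIP over PFC (x axis) for the 71 steady transcripts and the other transcripts of the same length and level range (grey), with dotted lines at 1.2-fold. Both axes share the PFC mean. The steady transcripts gather near 0, and 1 of them, ENSRNOT00000066590, lies near -0.93 and -1.03.

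ENSRNOT00000066590 had the widest regional difference. Its lowest, median and highest FPKM were 22.9, 27.9 and 35.8 in PFC, 11.4, 14.9 and 19.3 in HIP, and 10.1, 13.4 and 16.6 in STR. No PFC library overlapped any HIP or STR library. The log2 difference was -0.93 (SE 0.032, limma adjusted p = 3.39e-57) for HIP minus PFC and -1.03 (SE 0.032, adjusted p = 3.84e-62) for STR minus PFC. The transcript was steady in each region, with an SD of 9.78% of the mean in PFC and 10.97% in STR, although its median major isoform share was 53.

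ENSRNOT00000058700 had the opposite order. Its lowest, median and highest FPKM were 12.7, 14.8 and 23.6 in PFC, 19.0, 22.9 and 26.9 in HIP, and 21.5, 25.01 and 31.5 in STR. The PFC range reached into those of HIP and STR, and the PFC median lay below every HIP and STR library. The log2 difference was 0.58 for HIP minus PFC (SE 0.030, limma adjusted p = 1.48e-38) and 0.72 for STR minus PFC (SE 0.030, adjusted p = 2.63e-48), or 1.496-fold and 1.65-fold.

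ENSRNOT00000065313 was lowest in HIP, at a mean of 44.4 FPKM against 64.0 in PFC and 54.7 in STR. It fell by 0.53 from PFC to HIP on the log2 scale (limma adjusted p = 3.49e-38) and was 0.31 higher in STR than in HIP. ENSRNOT00000068763 was at 30.0 in PFC, 42.7 in HIP and 43.0 in STR, a log2 difference of 0.52 for HIP minus PFC. One PFC library, HIV_Nic 10, which stood apart, was at 9.40 and the PFC median was 30.6. Without the 3 libraries that stood apart the log2 difference of HIP minus PFC was 0.48.

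ENSRNOT00000061229 stepped up through the regions, from 35.6 ± 5.32 in PFC to 44.6 ± 6.42 in HIP and 56.2 ± 5.65 in STR (SD, n = 48 each). Its log2 difference of STR minus PFC was 0.68, and 0.63 without the 3 libraries that stood apart. ENSRNOT00000020402 took the other direction, from 32.4 in PFC to 23.8 in HIP and 23.4 in STR. The log2 differences from PFC were -0.45 and -0.47, and HIP and STR did not differ past the threshold (-0.03, 95% interval -0.09 to 0.04).

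All 48 STR libraries lay above all 48 PFC libraries for 1 of the 71, and below them for 2. That was 4.23%, against 0.284% of the 2110 others. All HIP libraries lay below all PFC libraries for 1 of the 71 (1.41%), against 0.190%. A low spread makes such separation easier, so these counts are a description. Between STR and HIP the differences were smaller, and 0 of the 71, like 0 of the 2110 others, separated the 48 libraries of one from those of the other. The highest in STR were ENSRNOT00000017686, with means of 14.3 in STR and 10.9 in HIP (log2 difference 0.39, limma adjusted p = 5.07e-15), and ENSRNOT00000022169, with 16.1 and 12.4 (0.38, adjusted p = 8.55e-17). Both were also low in PFC, at 10.3 and 11.3. The lowest in STR were ENSRNOT00000057116, with 31.4 in STR and 41.8 in HIP (-0.41, adjusted p = 3.22e-20), and ENSRNOT00000050782, with 83.3 and 109 (-0.39, adjusted p = 3.95e-21). ENSRNOT00000057116 was as low in PFC, at 31.3, whereas ENSRNOT00000050782 was at 97.9 there.

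At the other end, ENSRNOT00000027150 had FPKM values of 14.8 ± 2.18 in PFC, 14.6 ± 1.79 in HIP and 14.9 ± 1.75 in STR (SD, n = 48 each). Its largest regional fold was 1.02, and its intervals allowed no more than 1.08. ENSRNOT00000029435 followed with a largest fold of 1.05. ENSRNOT00000027150 came near the spread limit in PFC, with an SD of 14.7% of the mean. ENSRNOT00000024755 and ENSRNOT00000025979, with the lowest spread of the 71, were also among the 5 flattest.

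Because the spread had entered the choice, the regional comparison was repeated on rats that had no part in it. The same limits applied to the F344 rats alone chose 132 transcripts, and their regional differences were then tested in the HIV-1Tg rats. Of the 132, 31 differed between HIP and PFC (23.5%; 19 higher in HIP and 12 lower), where 20.1% of the 12688 transcripts tested were called. Between STR and PFC 32 differed (24.2%; 16 higher and 16 lower), where 24.9% were called. Between STR and HIP 16 differed (12.1%; 4 higher and 12 lower), where 22.0% were called. On p alone 58, 61 and 38 of the 132 differed, where 21.5%, 26.2% and 23.3% of all did, and the 95% interval reached a median of 0.13 to either side. With the fold included, the share was near that of all transcripts for both comparisons with PFC and below it for STR against HIP. Without the 3 libraries that stood apart the counts were 34, 30 and 17, where 21.8%, 26.7% and 24.6% of all were called.

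The low spread itself carried over only in part. Of the 132 transcripts chosen in F344 rats, 45 (34.1%) met the spread limit in all 3 regions of the HIV-1Tg rats, against 3.19% of all transcripts within the length and level limits. The median SD of the 132 in PFC was 10.8% of the mean in the F344 rats and 19.1% in the HIV-1Tg rats. Of 158 chosen in saline rats, 43 (27.2%) met the limit in nicotine rats, against 2.79%. In the other direction, 45 of 70 chosen in HIV-1Tg rats (64.3%) met it in F344 rats, against 6.14%, and 43 of 61 chosen in nicotine rats (70.5%) met it in saline rats, against 7.23%. All 3 libraries that stood apart belong to HIV_Nic. Without them 97 of 132 (73.5%) chosen in F344 rats met the limit in HIV-1Tg rats, and 95 of 158 (60.1%) chosen in saline rats met it in nicotine rats. In the other direction the lists grew and the shares fell, to 99 of 179 (55.3%) for the choice in HIV-1Tg rats and 94 of 158 (59.5%) for that in nicotine rats.

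Strain and nicotine differences were small in the 71, and their choice over the same rats limits them, so the counts that follow are a description. The main effect of strain ran from -0.18 to 0.13 on the log2 scale in PFC, from -0.08 to 0.14 in HIP and from -0.14 to 0.09 in STR. The main effect of nicotine ran from -0.19 to 0.10, from -0.09 to 0.10 and from -0.19 to 0.11. In these 6 sets 0 of 71 exceeded 1.2-fold. After adjustment in limma, 0 of 71 passed for strain, for nicotine or for their interaction in any region. This 0 changed under some other settings, and for the interaction in PFC under most of them, as given below. For strain, 3.59% of all tested transcripts were called in PFC, 0.0712% in HIP and 0.0788% in STR. For nicotine 3.67%, 0.00712% and 0.179% were called, and for the interaction 3.87%, 0% and 0%.

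At an unadjusted p below 0.05, 6 of 71 differed by strain in PFC (1 higher in HIV-1Tg rats, 5 lower), 4 in HIP (4 higher) and 8 in STR (8 lower). Over all transcripts 10.6%, 4.91% and 8.96% did. By nicotine 4 differed in PFC (4 lower), 1 in HIP (1 higher) and 11 in STR (1 higher, 10 lower), where 10.3%, 5.21% and 7.35% of all did. The interaction passed for 7 in PFC, 22 in HIP and 4 in STR, where 11.1%, 7.66% and 4.88% of all did. All 22 in HIP were positive. After each library was scaled to the same median, 3 of 71 interactions passed in HIP, where 6.03% of all did, and the median interaction of the 71 moved from 0.14 to 0.04. In PFC the same scaling raised the count from 7 to 15 and moved the median from -0.04 to -0.12. The share of all in PFC after scaling is not given. The same scaling turned the balance of signs for strain in STR, where 23 of 71 were higher in HIV-1Tg rats as deposited and 47 after scaling. For nicotine it moved the number higher from 32 to 48 in PFC and from 26 to 38 in STR. In PFC, leaving out the 2 libraries that stood apart gave 14 strain and 8 nicotine differences at an unadjusted p below 0.05, where 12.4% and 11.2% of all passed. After adjustment in limma 3 and 2 passed, where 4.48% and 4.61% of all did.

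In PFC the lowest strain effect was that of ENSRNOT00000025784. Its lowest, median and highest FPKM were 14.6, 17.6 and 19.8 in F344_Sal rats and 15.9, 18.7 and 21.1 after nicotine. In HIV_Sal rats they were 11.3, 17.2 and 18.9, and 7.33, 17.1 and 19.7 after nicotine. The lowest HIV-1Tg values reached below the F344 range while the medians lay close. The value of 7.33 is that of PFC HIV_Nic 10, which stood apart. The strain effect was -0.18 (SE 0.072, limma adjusted p = 0.277), and -0.11 without the libraries that stood apart. ENSRNOT00000019470 was highest by strain, at 0.13 (adjusted p = 0.423), and lowest by nicotine, at -0.19 (SE 0.063, adjusted p = 0.102). Its PFC medians in saline rats were 25.04 (F344) and 24.9 (HIV-1Tg), those in nicotine rats 20.7 and 24.1, and all groups overlapped.

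ENSRNOT00000068303 gave the single difference past the adjusted threshold in a comparison of 12 against 12 rats. In PFC it was at 13.5, 14.7 and 24.1 (lowest, median, highest) in F344_Sal rats and at 10.8, 12.8 and 15.4 in F344_Nic rats. The groups overlapped, and 1 F344_Sal rat reached 24.1. The log2 difference was -0.26 (SE 0.080, limma adjusted p = 0.0430), where 5.36% of all transcripts were called. It was -0.19 after median scaling and then did not pass, nor did it pass with only these 2 groups in the fit. Other transcripts of the 71 passed under scaling, as given below. At an unadjusted p below 0.05, 6 of 71 differed in this comparison as deposited and 18 after scaling. Of the 71, 42 were higher in F344_Nic rats as deposited and 59 after scaling. In STR ENSRNOT00000068303 had the lowest strain effect, -0.14 (SE 0.036, limma adjusted p = 0.0840), where the F344 rats had medians of 18.7 (saline) and 18.1 (nicotine) and the HIV-1Tg rats 17.0 and 16.6.

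In HIP the strain effects ended at -0.08 for ENSRNOT00000066590 and 0.14 for ENSRNOT00000061229, and the nicotine effects at -0.09 for ENSRNOT00000019470 and 0.10 for ENSRNOT00000011237. The limma adjusted p was 0.942 for both strain effects and 0.919 for both nicotine effects. In STR the lowest nicotine effect was -0.19 for ENSRNOT00000058986 (SE 0.054, adjusted p = 0.199). Its lowest, median and highest FPKM were 10.9, 11.7 and 14.3 in F344_Sal rats and 10.1, 11.3 and 12.8 after nicotine. In HIV_Sal rats they were 10.1, 12.9 and 16.5, and 8.44, 10.6 and 12.9 after nicotine. The HIV_Sal rats were highest and the HIV_Nic rats lowest by median, with overlap. The highest was 0.11 for ENSRNOT00000001201 (adjusted p = 0.658). The highest strain effect in STR was 0.09 for ENSRNOT00000057938, for which 1 F344_Sal library was at 4.998 FPKM and the group's median was 17.3. That library held 2 assembled transcripts under the identifier with a sum of 16.97 FPKM, and with such cells summed the strain effect was 0.016.

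**Figure D5:**
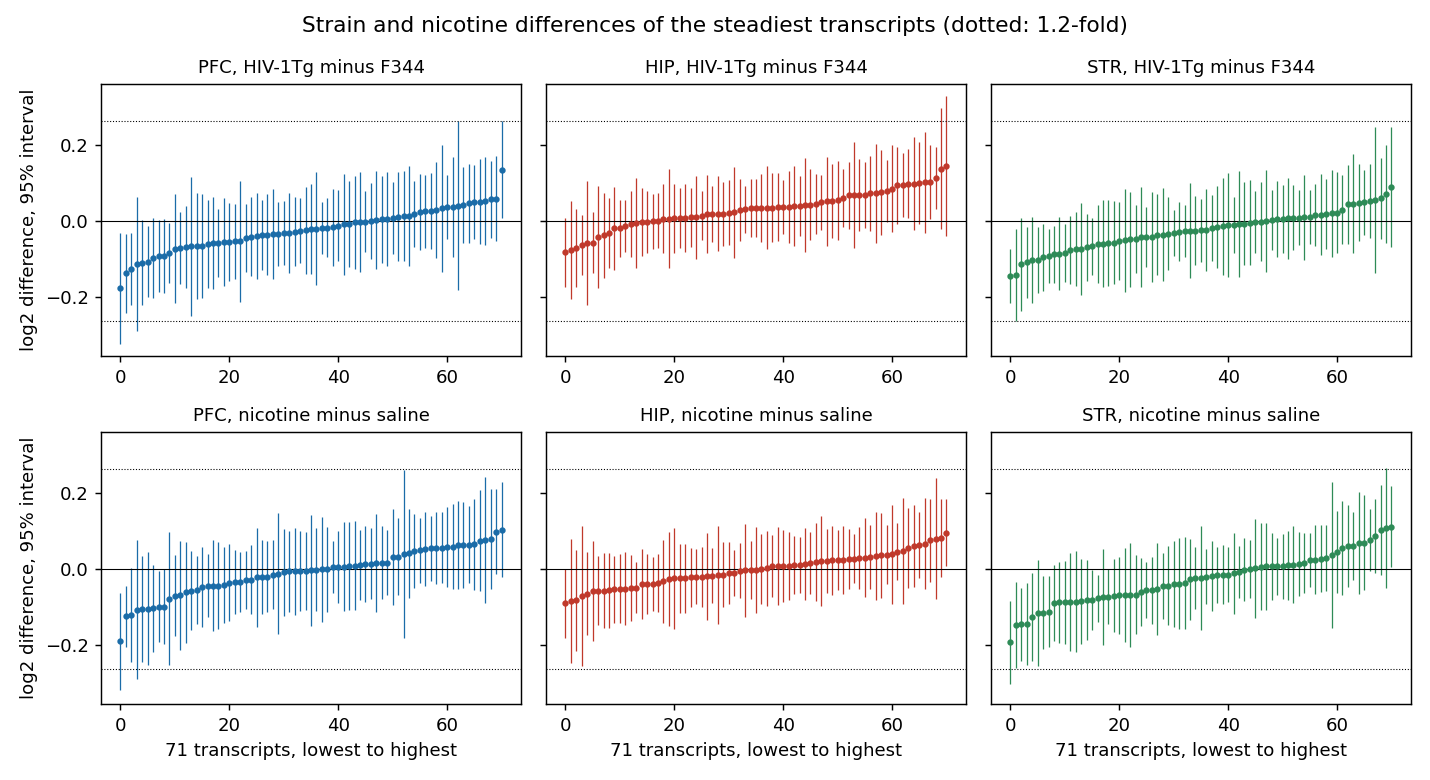
Log2 main effects of strain (HIV-1Tg minus F344) and nicotine (nicotine minus saline) with 95% intervals for the 71 steady transcripts in each region, with lines at 1.2-fold. The estimates lie inside 1.2-fold in all 6 panels, from -0.19 to 0.14.

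The spread fixes the smallest change these transcripts could have shown. For a main effect, with 24 rats on each side, the 95% interval reached a median of 0.11 to either side on the log2 scale in PFC, 0.091 in HIP and 0.10 in STR. Over all tested transcripts it reached 0.49, 0.46 and 0.47. A change detected with 80% power at an unadjusted two-sided p of 0.05 had a median of 1.11-fold in PFC, 1.09-fold in HIP and 1.11-fold in STR. Over the 71 it ran from 1.07 to 1.24, from 1.06 to 1.199 and from 1.06 to 1.21. For the other transcripts within the length and level limits the medians were 1.40, 1.35 and 1.37, and over all tested transcripts 1.62, 1.58 and 1.59. The required change was under 1.2-fold for 70, 71 and 70 of the 71, against 17.2%, 25.6% and 22.4% of the 2024, 2040 and 2034 others that passed the filter on low values. These medians rest on transcripts chosen for a low spread in the same rats.

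With 12 rats against 12 the median was 1.16-fold in PFC, 1.14-fold in HIP and 1.15-fold in STR, and 57, 65 and 64 of the 71 could show a change under 1.2-fold. Of the other transcripts within the limits 3.26%, 9.75% and 8.41% could. For the interaction, a difference of differences, the medians were 1.23, 1.196 and 1.22, and 12, 38 and 28 could. Adjustment over all transcripts asks for more than these sizes.

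The intervals themselves are a description too, since the choice limited any strain or nicotine difference in the same libraries. The interval of the strain effect lay inside 1.2-fold in either direction for 69 of 71 in PFC, 69 in HIP and 70 in STR, and that of the nicotine effect for 69, 71 and 69. For HIV_Sal against F344_Sal this was so for 59, 62 and 63, for HIV_Nic against HIV_Sal for 51, 59 and 59, and for F344_Nic against F344_Sal for 51, 56 and 51. For the interaction it was so for 21, 15 and 31. The shares of all tested transcripts are not given. Their median interval for a main effect reached 0.49, 0.46 and 0.47 to either side on the log2 scale, which is wider than 1.2-fold.

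Nicotine was then tested in rats that had no part in the choice, using the 132 transcripts chosen in F344 rats and the HIV-1Tg rats alone. The choice pooled F344_Sal and F344_Nic rats and so limited any nicotine difference in F344 rats. A nicotine effect shared by the 2 strains was thus selected against. At an unadjusted p below 0.05, 3 of 132 differed between HIV_Nic and HIV_Sal rats in PFC, 10 in HIP and 5 in STR, where 4.77%, 5.10% and 6.30% of all transcripts did. In PFC 1 was higher in HIV_Nic rats and 2 lower, in HIP all 10 were higher, and in STR 2 were higher and 3 lower. Past the threshold or not, 113 of the 132 were higher in HIV_Nic rats in HIP, and 94 after median scaling of the libraries. The share of all transcripts that were higher is not given. The median log2 difference of the 132 was 0.08 in HIP, and 0.04 after scaling. Over all tested transcripts, in the fit of 4 groups, it was 0.04 and -0.006. With that scaling 3, 4 and 8 passed in PFC, HIP and STR, where 4.85%, 4.38% and 6.32% of all did. The 4 in HIP were higher in HIV_Nic rats, as were 1 in PFC and 5 in STR. After adjustment in limma 0 of 132 did in each region, where 0%, 0% and 0.0671% of all did. Fold changes above 1.2 were seen in 16, 2 and 3 of the 132, and in 6 in PFC without the libraries that stood apart. The median change that 80% power would detect was 1.26-fold in PFC, 1.16-fold in HIP and 1.17-fold in STR, and the interval lay inside 1.2-fold for 42, 85 and 93. Over all tested transcripts the median detectable change was 1.95-fold, 1.84-fold and 1.86-fold. The shares of all above 1.2-fold, or with the interval inside it, are not given. Without the libraries that stood apart, 10 differed in PFC, all lower in HIV_Nic rats, and 5 in HIP, all higher, where 4.31% and 4.37% of all did. The detectable change was then 1.14-fold in both, and the interval lay inside 1.2-fold for 102 and 104.

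Strain was tested in the same way, using the 61 transcripts chosen in nicotine rats and the saline rats alone. The choice pooled F344_Nic and HIV_Nic rats and so limited any strain difference under nicotine. A strain difference present under saline and nicotine alike was thus selected against. At an unadjusted p below 0.05, 3 of 61 differed between HIV_Sal and F344_Sal rats in PFC, 2 in HIP and 5 in STR, where 5.33%, 4.16% and 5.96% of all did. In PFC 2 were higher in HIV_Sal rats and 1 lower, and those in HIP and STR were lower. After median scaling 3, 2 and 1 passed, where 5.08%, 4.12% and 5.32% of all did, and the number of the 61 that were higher in HIV_Sal rats in STR went from 18 to 35. After adjustment in limma 0 of 61 did, where 0.0203%, 0.0134% and 0.00664% of all did. The log2 differences ran from -0.18 to 0.18 in PFC, from -0.23 to 0.13 in HIP and from -0.20 to 0.12 in STR, and 0 of 61 exceeded 1.2-fold in any region. The change that 80% power would detect had a median of 1.14-fold in PFC, 1.16-fold in HIP and 1.17-fold in STR. Over all tested transcripts this median was 1.80-fold, 1.86-fold and 1.91-fold. The shares of all above 1.2-fold, or with the interval inside it, are not given. The interval lay inside 1.2-fold for 49, 46 and 45 of 61. These counts bound the strain difference for most of the 61 and leave it unbounded at 1.2-fold for 12, 15 and 16.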

How the data were processed

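RNA was measured by TruSeq sequencing of total RNA from PFC, HIP and STR punches, 48 libraries per region. The authors aligned reads with TopHat and Bowtie (version 1.04 in the submitters' processing notes) to the Rn4 rat genome and estimated transcripts with Cufflinks. They deposited 6 tables, 1 per strain and region, whose packed cells hold FPKM, its interval, coverage, length and major isoform share per library. FPKM is scaled per library and length and is not a read count, so counting error could not be computed. Annotated matches (class code "=") were joined by identifier. The median length and the first assembled transcript of a cell were used. Members, limits and lists were chosen with earlier results of these data known.

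Differences were tested with limma 3.58.1 in R 4.3.3 on log2(FPKM + 0.1), with a trended prior, over transcripts above 0.01 FPKM in at least 6 of 12 rats of every group, and Benjamini-Hochberg adjustment. The fit had the 4 groups of a region, or the 12 groups of all 144 libraries for regions. The paper describes its own test as an ANOVA with strain and sex as factors, but these groups are defined by strain and drug. The threshold was an adjusted p of 0.05, with a fold of 1.2 for regions. The detectable change was the SE times the sum of the t quantiles for a two-sided p of 0.05 and 80% power. Within a region each library is a separate rat. The regions came from the same brains, but the labels do not tie libraries of different regions to a rat, so regions were treated as unpaired. Scripts were tested on simulated data.

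Named transcripts were the steadiest members, the extremes of each region, strain and nicotine comparison, the flattest members, and those nearest the limit. At most 2 higher and 2 lower are named per comparison because identifiers are not paired with gene names. Transcripts with the widest single low value and the gene with 2 members were named after their values were seen. Gene lists and cell type markers could not be applied. Alternatives covered the pseudocount, filter, scaling, sample weights, outliers, samples, replicate number and the members' limits. Added after seeing the data were the summed FPKM of a cell (for the choice and for each comparison of the 71), length limits in every library, each of the 3 libraries left out alone, and the tests in rats outside the choice without these libraries or after median scaling.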

Additional observations from a re-analysis of the deposited data

How the results depend on the processing

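The number of steady transcripts changed with the limit, the libraries and the rats used. It was 7 at an SD of 10% of the mean, 243 at 20%, 132 in F344 rats alone, 158 in saline rats alone and 142 without the 3 libraries. Choosing in 1 strain or 1 drug group also uses fewer rats. Leaving out 1 of the 3 gave 72 to 107. Of the transcripts chosen in 1 set of rats, the number within the limit in the other rats went from 45 of 132 to 97 of 132 (F344 to HIV-1Tg), 45 of 70 to 99 of 179 (HIV-1Tg to F344), 43 of 158 to 95 of 158 (saline to nicotine) and 43 of 61 to 94 of 158 (nicotine to saline). The share rose for the first and the third and fell for the other two. Regional counts stayed within 1.5 times under each alternative run.

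At an unadjusted p below 0.05 in PFC, the 6 strain differences became 10 with no filter, 11 with sample weights, 14 without the 2 libraries and 14 with outliers removed. The 4 nicotine differences became 8 without them, 9 with outliers removed and 2 with a replicate block. The share of all tested transcripts moved too. For strain it was 10.6% as described and 12.4% without the 2 libraries, and for nicotine 10.3% and 11.2%. The 7 interactions became 15 with median scaling and 16 with outliers removed, settings for which the share of all is not given. In HIP, 4 strain differences became 8 with no filter and 15 with outliers removed, 1 nicotine difference became 2 with a pseudocount of 0.01, no filter, a mean of at least 1, scaling, the block, summed cells or outliers removed, and 22 interactions became 3 with scaling. In STR, 8 strain differences became 4 with scaling and 14 with outliers removed, 11 nicotine differences became 17 with outliers removed, and 4 interactions became 2 with scaling and 11 with outliers removed. Of all tested transcripts, 7.66% passed for the interaction in HIP as described and 6.03% with scaling. For the other changed counts of the steady transcripts the share of all is not given. Those counts therefore cannot show a change particular to the steady transcripts. The held-out nicotine counts without the 3 libraries were 10 for 3 in PFC and 5 for 10 in HIP, and with scaling 4 for 10 in HIP and 8 for 5 in STR. The held-out strain count in STR went from 5 to 1 with scaling.

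After adjustment in PFC, 0 strain differences became 3 with weights, 3 without the 2 libraries and 5 with outliers removed. The 0 nicotine differences became 3, 2 and 3 under the same settings. Of all tested transcripts, 3.59% were called for strain as described and 4.48% without the 2 libraries, and for nicotine 3.67% and 4.61%. The 0 interactions became 1 with either other pseudocount, no filter, a mean of at least 1, scaling, weights, summed cells or without the libraries, and 3 with outliers removed. The 1 difference of F344_Nic against F344_Sal became 2 with a pseudocount of 0.01, 2 with no filter, 2 with scaling, 4 with weights, 5 without the libraries, 8 with outliers removed, and 0 with the block or with only these groups fitted. The share of all transcripts called, 5.36% as described, is not given for these settings. With outliers removed 2 interactions in HIP, and 2 strain and 2 nicotine differences in STR, passed, and 1 strain difference in STR passed with no filter. Removing outliers within a group lowers the spread by construction. For the other settings the cause was not tested. Except for strain and nicotine without the 2 libraries, the share of all under the changed settings is not given. The other changed counts therefore cannot be set against it.

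Libraries with the same replicate number did not deviate together (median correlations from -0.012 to 0.014), so these values gave no sign of a pairing by number. They cannot exclude it, because no libraries known to share a rat were at hand to show how far such libraries correlate. The replicate block left the regional counts at 19, 18 and 13. At an unadjusted p it also moved strain in PFC from 6 to 5 and in HIP from 4 to 3, nicotine in STR from 11 to 9, and the interaction from 7 to 6 in PFC and from 4 to 3 in STR. The share of all with the block is not given. Of the named transcripts' values under the alternatives, 225 kept direction and side of the threshold, 7 newly passed it, 3 no longer passed it and 0 reversed.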
